A study of Mus musculus with 8 samples.

Results

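The genes described here are 10 genes of MHC class II presentation and costimulation, chosen by name, and 9 of them were measured, of 18820 genes in all that had a probe set with exactly 1 gene symbol. They are the class II chains H2-Aa, H2-Ab1 and H2-Eb1, the invariant chain Cd74, the peptide editor subunits H2-DMa and H2-DMb1, the class II transactivator Ciita, the costimulatory ligands Cd80 and Cd86 and the inhibitory ligand Cd274. For each gene the probe set with the highest mean over the 8 arrays was read. The only probe set for H2-DMb1 is shared with H2-DMb2, so no value is given for it.

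MHC class II molecules are pairs of an alpha and a beta chain on the surface of antigen-presenting cells, where they show peptides from engulfed proteins to CD4 T cells. In the cell the invariant chain guides the new molecules to endosomes, H2-DM helps to exchange the remnant of the invariant chain for a peptide, and CIITA switches on the whole group of genes through a shared promoter module that includes the X and Y boxes. A T cell also reads a second signal: CD80 and CD86 bind CD28 and activate it, whereas CD274, also called PD-L1, binds PD-1 and restrains it. In the lung, dendritic cells, macrophages, B cells and some epithelial cells carry class II, and interferon-gamma raises class II genes and Cd274 in many cell types.

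RNA came from whole lungs of mice on an FVB background, 8 to 12 weeks old, with the sexes labelled as evenly mixed in each group. All mice, controls included, drank 2 g/L dox with 2% sucrose for 1 week. CCSP-p52 mice carry CCSP-rtTA with a CCSP-tTS/(tet-O)7-FLAG-p52 construct, so that dox induces p52 in airway epithelium under the CCSP promoter, and they came from more than 1 founder line. The WT mice were littermates negative for the transgenes. The 4 groups were WT dox, CCSP-p52 dox, and both genotypes on dox with LPS, a bacterial endotoxin given into the trachea 48 hours before the lungs were taken. Each array held RNA pooled from 3 mice, which gives 2 pools and 6 mice per group, and the error given is that between pools.

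The deposited values are log2 intensities brought to a common distribution, with array medians from 7.48 to 7.54 and correlations from 0.981 to 0.994 between the pools of a group. Nfkb2, which encodes p100 and its product p52, was higher in CCSP-p52 dox than in WT dox lungs by 0.72 on the log2 scale (SE 0.23, unadjusted p = 0.0186, adjusted p = 1.00 from limma). With LPS its p52 difference was 0.21 (SE 0.23, unadjusted p = 0.393, adjusted p = 0.851 from limma). In WT LPS pool 2, 5 of 6 markers of squamous epithelium and striated muscle lay more than 1 log2 unit above the highest other array, and the main counts that use this array are also given without it. In whole lungs, fewer cells of a type and less RNA per cell cannot be told apart.

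The class II promoters are shown because they hold the letters of the shared module. From the RefSeq promoter table (GRCm38.p6), entries of 6 of the 10 genes were searched: H2-Aa, H2-Eb1, H2-DMa, H2-DMb1, Cd80 and Cd274. Each window of 250 bases before to 50 bases after the gene start was searched on both strands. The Y box core CTGATTGG, bound by the factor NF-Y, was found in H2-Aa and H2-Eb1, and in 4.1% of all 32851 promoters. The X2 box TGACGTCA, a site of the CREB type added to the search after the promoters had been seen, was found in H2-Aa and in 1.79% of promoters. An NF-kB pattern was found in H2-Aa on both strands, at overlapping positions, and in 4.51% of promoters. Capitals mark these matches in the 250 bases before the start, read 5′ to 3′ along the gene.
H2-Aa, chr17:34287824-34288073, minus strand: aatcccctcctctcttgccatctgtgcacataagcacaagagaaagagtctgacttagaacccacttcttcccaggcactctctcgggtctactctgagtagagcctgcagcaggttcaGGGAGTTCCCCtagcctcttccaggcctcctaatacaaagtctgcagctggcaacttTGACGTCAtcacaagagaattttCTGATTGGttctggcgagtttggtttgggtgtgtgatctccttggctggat
H2-Eb1, chr17:34305617-34305866, plus strand: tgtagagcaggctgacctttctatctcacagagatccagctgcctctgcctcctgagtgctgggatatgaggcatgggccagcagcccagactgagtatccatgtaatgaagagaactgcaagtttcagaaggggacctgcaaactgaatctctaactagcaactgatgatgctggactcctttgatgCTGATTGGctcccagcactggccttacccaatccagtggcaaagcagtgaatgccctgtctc

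In H2-Aa the NF-kB pattern began 131 and 130 bases before the start, the X2 box 74 bases and the Y box core 51 bases before it. In H2-Eb1 the Y box core began 62 bases before the start. A run of 13 bases, AACTGATGATGCT, lies at 89 bases before the start of H2-Eb1 and at 92 bases before that of H2-DMb1, the longest run shared by any of the promoters compared. The CCAAT pentamer, which overlaps the Y box core on the other strand, was found in 37.4% of promoters, among them those of H2-Aa, H2-Eb1, H2-DMb1 and the second H2-DMa promoter. The interferon-gamma site pattern TTCNNNGAA (8.3% of promoters) and the ISRE pattern of interferon response (3.44%) had no match in the windows of these 6 genes. A match or its absence describes the letters of the window alone. Those letters are of the reference build and were not read from the FVB mice measured.

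LPS raised all 9 measured genes when both genotypes were pooled in 1 fit. In limma's additive model, which fits an LPS term and a p52 term to the 8 arrays, the LPS effect passed an adjusted p under 0.05 for 9 of 9, all of them higher, against 13.5% of all genes called higher and 20.8% called lower. The median log2 difference was 1.00 for the 9 genes and 0.0046 for all genes. For each of the 9, all 4 LPS arrays lay above all 4 arrays without LPS, an order seen in 15.1% of all genes. The sizes ran from 0.36 for H2-Aa to 3.15 for Cd274. Without WT LPS pool 2, 9 of 9 passed here as well.

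**Figure D1:**
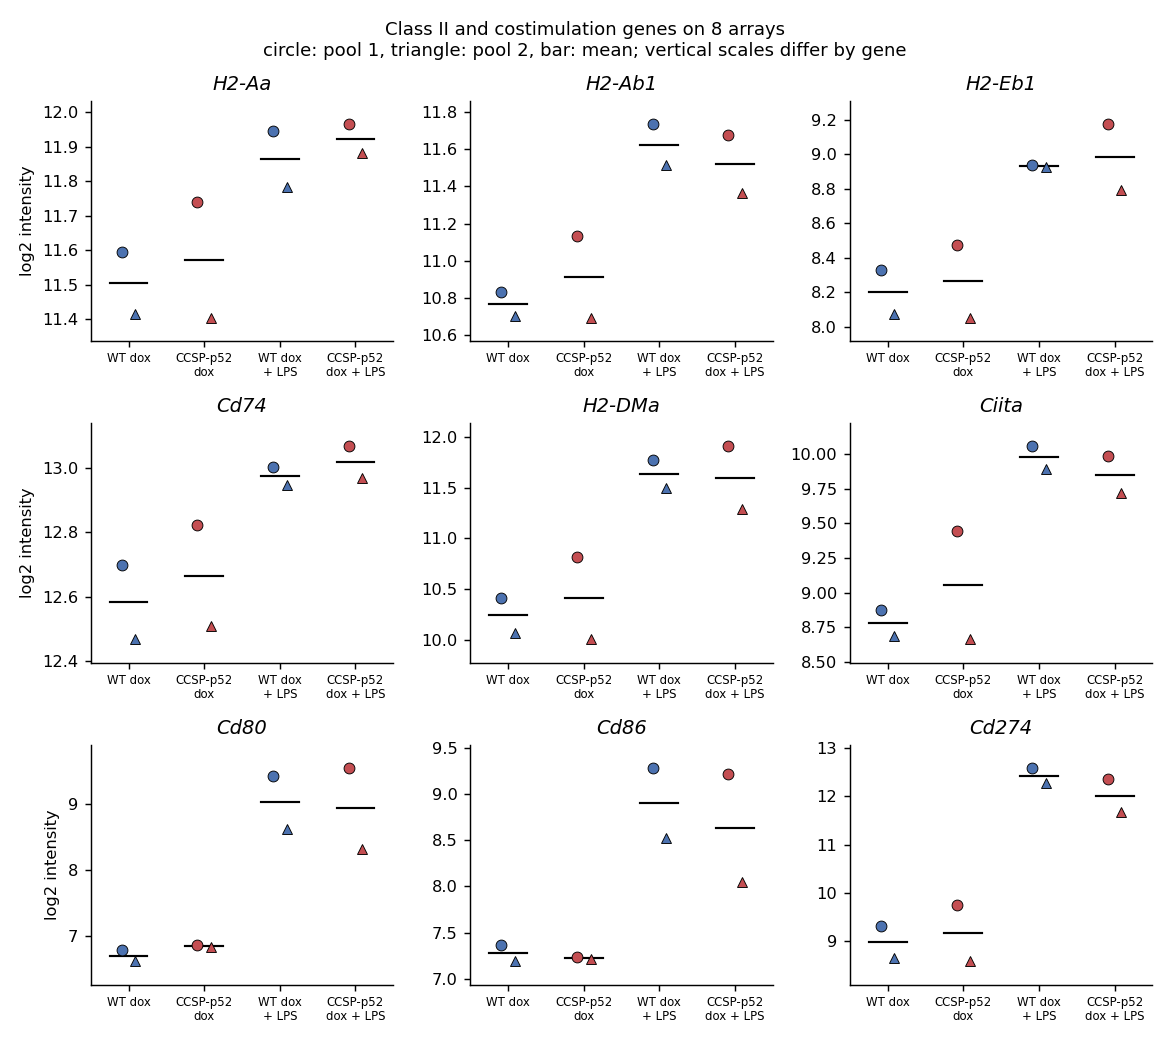
Log2 intensity (vertical axis, a separate scale for each gene) of the 9 genes in the 4 groups (horizontal axis). Circles are pool 1, triangles pool 2, bars the mean of the 2 pools, blue WT and red CCSP-p52. In every panel the 4 LPS arrays lie above the 4 arrays without LPS, and pool 1 lies above pool 2 in each group.

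H2-Ab1, the beta chain of the I-A molecule, had log2 values of 10.83 and 10.70 in WT dox, 11.13 and 10.69 in CCSP-p52 dox, 11.74 and 11.51 in WT LPS and 11.68 and 11.36 in CCSP-p52 LPS, pool 1 first. The lowest LPS array, 11.36, stood above the highest array without LPS, 11.13, and within either LPS state the ranges of the genotypes overlapped. The additive LPS effect was 0.73 (SE 0.13, 1.66-fold, n = 4 arrays each, adjusted p = 0.00347 from limma).

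H2-Aa, the alpha chain of the same molecule, read 11.60 and 11.41 in WT dox, 11.74 and 11.40 in CCSP-p52 dox, 11.95 and 11.78 in WT LPS and 11.97 and 11.88 in CCSP-p52 LPS. The LPS and no-LPS arrays came close, with 11.74 the highest without LPS and 11.78 the lowest with it. The additive effect was 0.36 (SE 0.09, 1.28-fold, adjusted p = 0.0204). This call was lost in 4 of the 8 fits that leave out 1 array, and stood there at 0.34 without CCSP-p52 LPS pool 1, 0.32 without WT LPS pool 1, 0.29 without CCSP-p52 dox pool 2 and 0.32 without WT dox pool 2.

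H2-Eb1, the beta chain of the I-E molecule, read 8.33 and 8.07 in WT dox, 8.48 and 8.05 in CCSP-p52 dox, 8.94 and 8.93 in WT LPS and 9.17 and 8.79 in CCSP-p52 LPS. The pair of WT LPS pools lay inside the range of the CCSP-p52 LPS pools. LPS raised it by 0.72 (SE 0.12, 1.65-fold, adjusted p = 0.00325).

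Cd74, the invariant chain, read 12.70 and 12.47 in WT dox, 12.82 and 12.51 in CCSP-p52 dox, 13.00 and 12.95 in WT LPS and 13.07 and 12.97 in CCSP-p52 LPS. The additive effect was 0.37 (SE 0.09, 1.29-fold, adjusted p = 0.0151), and it lost its call without WT dox pool 2 (0.32, adjusted p = 0.0554). Cd74 and H2-Aa had the smallest LPS effects of the 9 genes.

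H2-DMa, a subunit of the peptide editor, read 10.41 and 10.07 in WT dox, 10.81 and 10.002 in CCSP-p52 dox, 11.77 and 11.50 in WT LPS and 11.91 and 11.29 in CCSP-p52 LPS. The CCSP-p52 pools were spread around the WT pools in both LPS states. LPS raised it by 1.29 (SE 0.21, 2.45-fold, adjusted p = 0.0025).

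Ciita, the transactivator of the class II genes, read 8.87 and 8.69 in WT dox, 9.45 and 8.66 in CCSP-p52 dox, 10.06 and 9.89 in WT LPS and 9.99 and 9.72 in CCSP-p52 LPS. CCSP-p52 dox pool 1 stood apart from the other 3 arrays without LPS, which lay between 8.66 and 8.87. The additive LPS effect was 1.00 (SE 0.18, 1.99-fold, adjusted p = 0.00377).

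Cd80, a ligand of CD28 and CTLA-4, read 6.78 and 6.61 in WT dox, 6.86 and 6.83 in CCSP-p52 dox, 9.43 and 8.62 in WT LPS and 9.55 and 8.32 in CCSP-p52 LPS. The arrays without LPS lay within a narrow range, and with LPS the first pool of each genotype was high and the second lower. LPS raised Cd80 by 2.21 (SE 0.27, 4.63-fold, adjusted p = 0.000781), and by 1.92 (SE 0.25) on its other probe set.

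Cd86, the second ligand of the same receptors, showed this layout as well, with 7.36 and 7.19 in WT dox, 7.24 and 7.22 in CCSP-p52 dox, 9.28 and 8.53 in WT LPS and 9.21 and 8.05 in CCSP-p52 LPS. LPS raised it by 1.51 (SE 0.26, 2.86-fold, adjusted p = 0.0031).

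Cd274, the ligand of PD-1, read 9.31 and 8.65 in WT dox, 9.75 and 8.58 in CCSP-p52 dox, 12.59 and 12.27 in WT LPS and 12.35 and 11.68 in CCSP-p52 LPS. Its LPS effect of 3.15 (SE 0.29, 8.87-fold, adjusted p = 0.000285) was the largest of the 9 genes, and the gap between the lowest LPS array and the highest array without LPS was also widest here. Leaving out 1 array at a time kept the effect between 2.96 and 3.44.

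Within a genotype, each LPS effect rests on 2 pools against 2, where an exact permutation test cannot give a two-sided p below 0.333, so the limma fit over all genes is given. In WT lungs 7 of 9 genes passed as higher, against 8.07% of all genes. H2-Aa (0.36, SE 0.14, adjusted p = 0.111) and Cd74 (0.39, SE 0.14, adjusted p = 0.0833) did not pass. In CCSP-p52 lungs 2 of 9 passed as higher, against 4.31% of all genes, namely Cd80 (2.09, SE 0.41, adjusted p = 0.0279) and Cd274 (2.85, SE 0.42, adjusted p = 0.0139).

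The other 7 genes had log2 differences from 0.35 for H2-Aa to 1.40 for Cd86 in CCSP-p52 lungs, with adjusted p from 0.0583 to 0.157. With the pool number as a block, 9 of 9 passed in WT lungs, against 11.1% of all genes, and 7 of 9 in CCSP-p52 lungs, against 7.55%. The 2 that did not pass in CCSP-p52 lungs with the block were again H2-Aa (adjusted p = 0.0584) and Cd74 (adjusted p = 0.0637). With the block, H2-Aa and Cd74 passed in WT lungs at adjusted p of 0.0385 and 0.0339.

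Many of these calls by genotype changed when 1 array was left out. In WT lungs 0 of 9 passed without WT dox pool 2, 1 of 9 without WT dox pool 1 or WT LPS pool 1, and 4 of 9 without WT LPS pool 2, the array with the squamous and muscle markers. The 4 were H2-Ab1, Cd80, Cd86 and Cd274, and without that array H2-DMa stood at 1.53, Ciita at 1.28 and H2-Eb1 at 0.73, compared with 1.39, 1.19 and 0.73 with it. In CCSP-p52 lungs 0 of 9 passed without CCSP-p52 dox pool 2, 1 of 9 without CCSP-p52 dox pool 1, WT dox pool 1 or WT dox pool 2, and 6 of 9 without CCSP-p52 LPS pool 2. Such a fit leaves a group with 1 pool, assumed to vary like the others, and has fewer degrees of freedom. The share of all genes called in these fits is not given. A loss of calls in these genes therefore cannot be told apart from a loss over all genes. The direction was higher with LPS for each of the 9 genes in every one of these fits. It could not have changed, since every LPS array lay above every array without LPS for each gene.

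**Figure D2:**
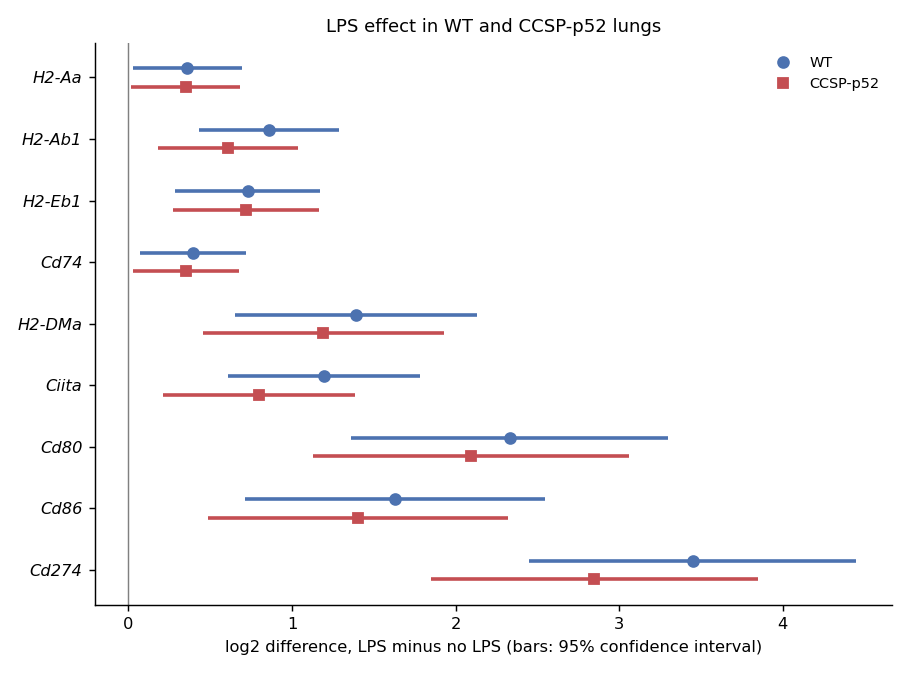
Log2 difference between lungs with and without LPS (horizontal axis) for each of the 9 genes (vertical axis), in WT (blue circles) and CCSP-p52 lungs (red squares). Bars are 95% confidence intervals of the 4-group limma fit, and all 18 lie above 0 before adjustment, with wide overlap between the genotypes.

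The question of the transgene is whether p52 in airway epithelium shifts these genes, alone or after LPS. A gene was counted at a cut-off of 0.41 or more in log2 difference, the size the study used for increases and applied here either way, together with an unadjusted p no higher than 0.05. None of the 9 genes reached it without LPS (background 0.733% of all genes), with LPS (2.06%), or in the additive model (0.271%). By limma 0 of 9 had an unadjusted p under 0.05 in any of these comparisons, 0 passed adjustment, and 0 reached the cut-off with the pool number as a block.

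Without LPS the p52 differences lay between -0.05 for Cd86 and 0.27 for Ciita, with a median of 0.15 against -0.0027 for all genes. For Ciita the 95% confidence interval ran from -0.31 to 0.86, and for H2-Ab1, at 0.15, from -0.28 to 0.57. CCSP-p52 dox pool 1 was the highest array without LPS for 8 of the 9 genes, and CCSP-p52 dox pool 2 was the lowest for 6 of them. Without CCSP-p52 dox pool 2 Ciita reached the cut-off (0.66, unadjusted p = 0.00957, adjusted p = 1.00 from limma), and without pool 1 its difference was -0.12.

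With LPS the p52 differences lay between -0.41 for Cd274 and 0.06 for H2-Aa, with a median of -0.09 against 0.0046 for all genes. Cd274 had the lowest value, with a 95% confidence interval from -1.42 to 0.59 (adjusted p = 0.841), and the ranges of the genotypes overlapped. Cd86 stood at -0.28 (interval from -1.19 to 0.64). It reached the cut-off, at -0.86 (adjusted p = 0.144), only in the fit without CCSP-p52 LPS pool 1, and was 0.31 without CCSP-p52 LPS pool 2. Without WT LPS pool 2, none of the 9 reached the cut-off, and the p52 differences with LPS lay between -0.65 for Cd86 and 0.05 for H2-Eb1. For the class II chains and Cd74 the differences over all arrays were from -0.11 to 0.06 with LPS, and the interval of Cd74, the narrowest, ran from -0.28 to 0.37.

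**Figure D3:**
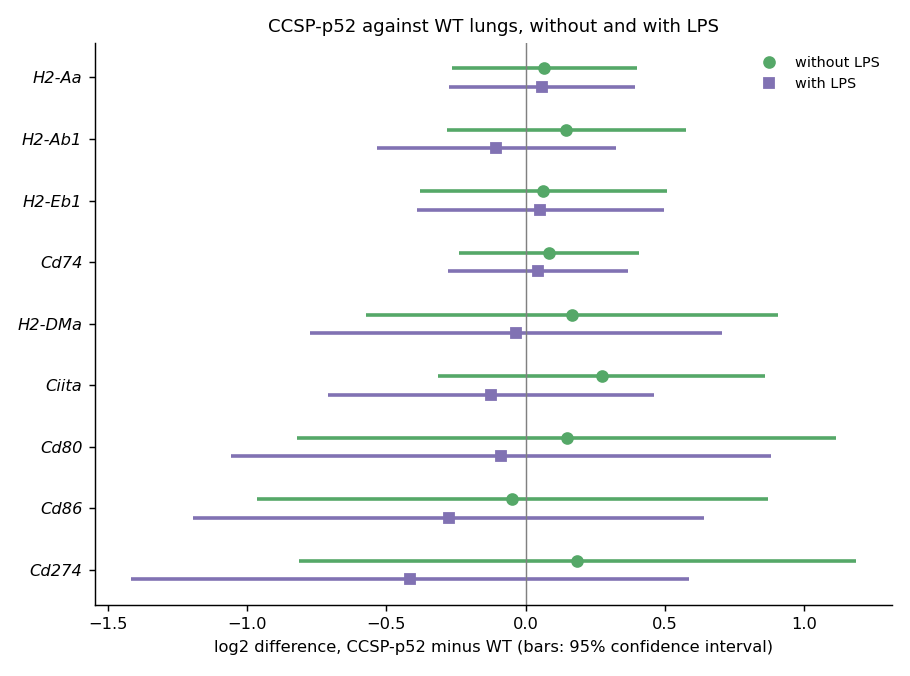
Log2 difference between CCSP-p52 and WT lungs (horizontal axis) for each of the 9 genes (vertical axis), without LPS (green circles) and with LPS (purple squares). Bars are 95% confidence intervals of the 4-group limma fit, and every interval includes 0, the narrowest for Cd74 and the widest for Cd274.

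The LPS effect of WT lungs was subtracted from that of CCSP-p52 lungs to test whether the genotypes responded differently. None of the 9 genes reached the cut-off for this difference, against 3.61% of all genes. The values were below 0 for all 9 genes, from -0.60 for Cd274 to -0.01 for H2-Aa, with a median of -0.23 against 0.0062 for all genes. The unadjusted p was at least 0.05 for each, and adjusted p ran from 0.931 to 0.999 by limma. The interval of Cd274 was from -2.02 to 0.81, that of Ciita (-0.40) from -1.23 to 0.43 and that of H2-Aa from -0.48 to 0.46. Ciita reached the cut-off in the fit without CCSP-p52 dox pool 2 (-0.79, adjusted p = 1.00) and stood at -0.01 without CCSP-p52 dox pool 1. Without WT LPS pool 2, none of the 9 reached it, and the values lay between -0.76 for Cd274 and -0.02 for H2-Eb1.

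The 9 genes also differed between pools of the same group. Pool 1 lay above pool 2 in all 4 groups for 9 of 9, an order found in 16.1% of all genes. In CCSP-p52 dox the gap was largest for Cd274 (1.17), H2-DMa (0.81) and Ciita (0.78), while Cd80 (0.03) and Cd86 (0.02) hardly differed. In CCSP-p52 LPS the gap was largest for Cd80 (1.23) and Cd86 (1.17), and smallest for H2-Aa (0.09) and Cd74 (0.10). Among B cell markers 6 of 6 had pool 1 above pool 2 in all groups, among T cell markers 5 of 6, among recruited monocyte and macrophage markers 4 of 5 and among dendritic cell markers 3 of 9. Their part in the pool differences was not tested, and what same-numbered pools have in common is not given in the labels.

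Within a pool number, LPS minus no LPS was above 0 for every gene in each of the 4 pairs. That sign follows from the order of the arrays given above. For H2-DMa these differences ran from 1.10 to 1.43, for H2-Ab1 from 0.55 to 0.90 and for Cd274 from 2.60 to 3.62. Cd86 had the widest spread for its size, from 0.83 in the second CCSP-p52 pair to 1.97 in the first.

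**Figure D4:**
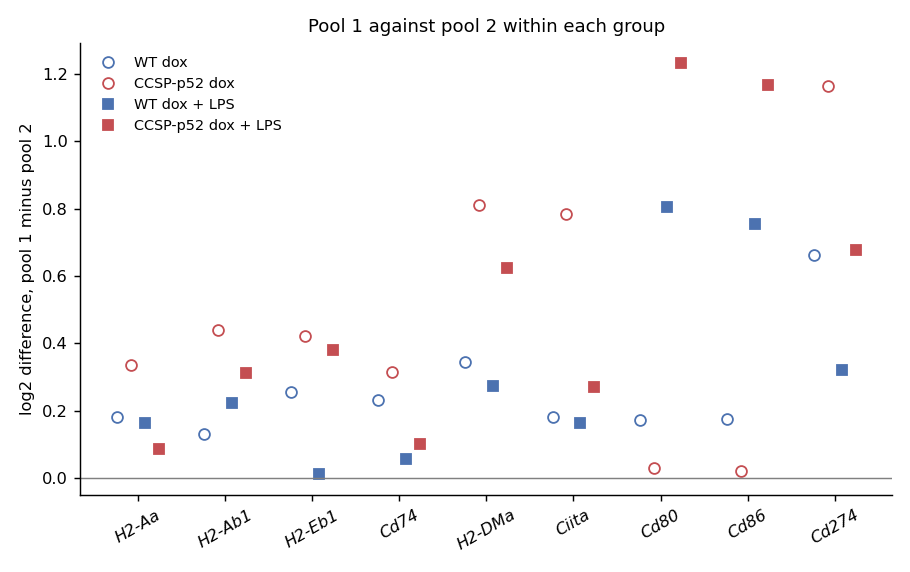
Log2 difference between pool 1 and pool 2 (vertical axis) for each of the 9 genes (horizontal axis) in WT dox and CCSP-p52 dox (open circles) and the LPS groups (filled squares), with WT in blue and CCSP-p52 in red. All 36 points lie above 0, from 0.01 for H2-Eb1 in WT LPS to 1.23 for Cd80 in CCSP-p52 LPS.

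Other genes of class II processing moved with LPS in the same model. Of 15 listed partners 13 were measured, and 10 passed as higher and 2 as lower, with a median of 0.53, beside 13.5% of all genes higher and 20.8% lower. Without WT LPS pool 2 the counts were 9 higher and 1 lower, beside 12.6% and 17.6% of all genes. Ctss, the cathepsin that trims the invariant chain, rose by 2.23 (SE 0.18, adjusted p = 0.000168). Ctsz, another lysosomal cathepsin, rose by 1.50 (SE 0.16), and Ifi30, a thiol reductase that unfolds antigens in lysosomes, rose by 1.18 (SE 0.16). Marchf1, a ubiquitin ligase that removes class II and CD86 from the cell surface, also rose by 1.18 (SE 0.17). H2-Ob, a subunit of the editor's inhibitor H2-O, fell by 0.65 (SE 0.09, adjusted p = 0.00156), whereas its partner H2-Oa rose by 0.89 (SE 0.25, adjusted p = 0.0248). H2-Ob read 8.94 and 8.77 in WT dox, 8.61 and 8.48 in CCSP-p52 dox, 8.20 and 7.99 in WT LPS and 8.10 and 7.89 in CCSP-p52 LPS, so that every LPS array was below every array without LPS. Marchf8 was the other gene that fell, by 0.24 (SE 0.06). No partner reached the cut-off in any p52 comparison, except Ctsd, a lysosomal protease, for the difference between the LPS effects when the pool number was a block (-0.43, unadjusted p = 0.0409, adjusted p = 0.727 from limma).

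Among genes of class II transcription and the interferon-gamma signal, 15 of 17 were measured, and 7 passed as higher and 1 as lower (13.5% and 20.8% of all genes), with a median of 0.38. Both counts were as many without WT LPS pool 2. Ifng, the gene of interferon-gamma itself, rose by 3.08 (SE 0.33, 8.46-fold, adjusted p = 0.00044). It read 6.45 and 6.38 in WT dox, 6.60 and 6.66 in CCSP-p52 dox, 9.97 and 9.45 in WT LPS and 10.35 and 8.64 in CCSP-p52 LPS. Irf1, a transcription factor induced by it, rose by 1.38 (SE 0.14), Irf8, a factor of myeloid cells, by 1.27 (SE 0.13) and Spi1, which encodes PU.1, by 2.46 (SE 0.24). Of the DNA-binding partners of CIITA, Rfx5 rose by 0.43 (SE 0.12, adjusted p = 0.0226), while the NF-Y subunits Nfya (-0.26, adjusted p = 0.0702, and 0.0415 with the block), Nfyb (0.06) and Nfyc (0.0081) and Rfxap (-0.12) did not pass. No gene of this list reached the cut-off in a p52 comparison.

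All 17 other genes of the B7 and CD28 families and costimulation were measured, and 9 passed as higher and 1 as lower (13.5% and 20.8% of all genes), with a median of 0.34. Icos, at 0.50, passed too with the block (adjusted p = 0.028). Leaving out WT LPS pool 2 gave 8 higher and 1 lower. Pdcd1, the receptor of CD274, rose by 1.02 (SE 0.14, adjusted p = 0.00138), and Pdcd1lg2, its other ligand, by 1.49 (SE 0.32). Cd40, the receptor on antigen-presenting cells for help from T cells, rose by 1.22 (SE 0.27), Vsir, an inhibitory B7 relative, by 0.49 (SE 0.10) and Tnfsf9, the ligand of 4-1BB, by 1.09 (SE 0.21). Cd40lg, the ligand of CD40 on T cells, was the gene that fell, by 0.42 (SE 0.11, adjusted p = 0.0187). All its values lay below the array medians. Cd28, the receptor of CD80 and CD86, stood at -0.21 (SE 0.18, adjusted p = 0.411).

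In the p52 comparisons of this list only Tnfsf9 and Cd40lg reached the cut-off. Tnfsf9 was higher in CCSP-p52 lungs by 0.66 in the additive model (SE 0.21, unadjusted p = 0.0143, adjusted p = 1.00 from limma) and by 0.80 without LPS (SE 0.32). Cd40lg reached it for the difference between the LPS effects, -0.42 (SE 0.16, unadjusted p = 0.0357, adjusted p = 0.913 from limma). Without WT LPS pool 2 this value was -0.43 (unadjusted p = 0.0734, adjusted p = 0.930 from limma) and no longer reached it, while the additive p52 difference of Tnfsf9, at 0.61, still did.

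**Figure D5:**
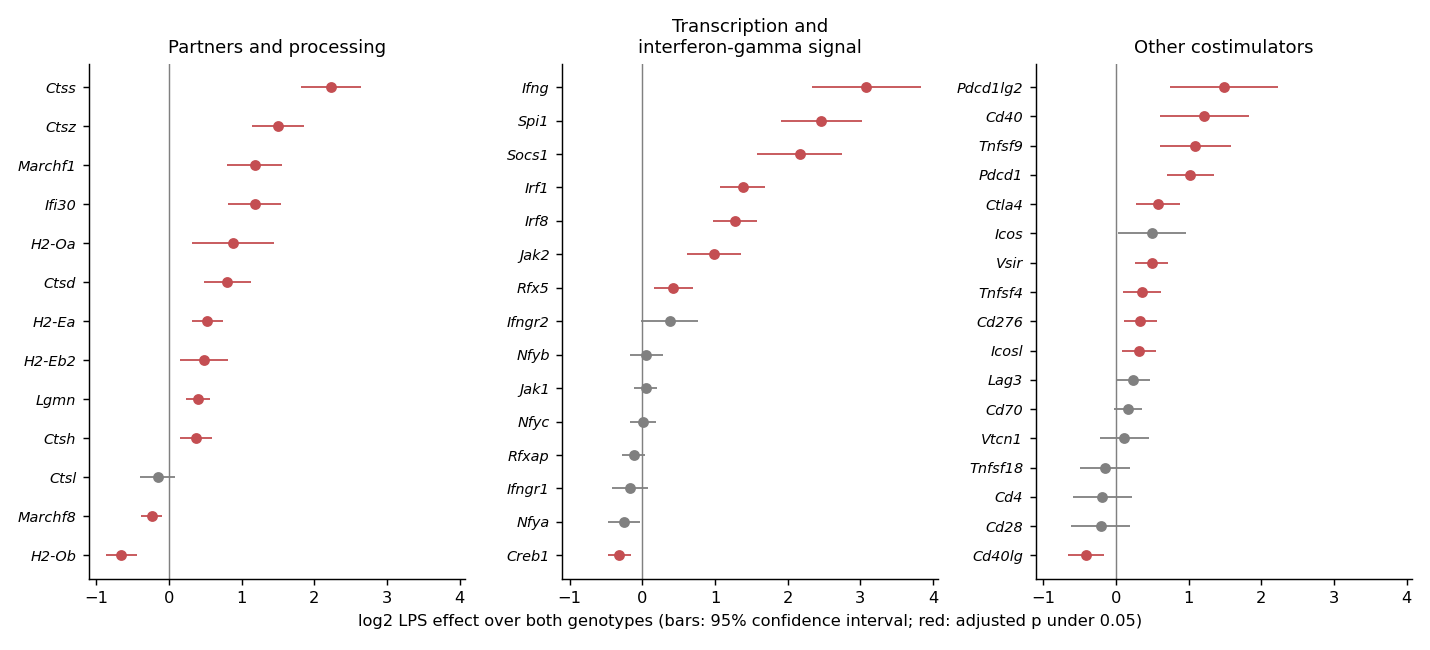
Additive log2 LPS effect (horizontal axis) of the genes of the 3 pathway lists (vertical axes), with 95% confidence intervals as bars and genes that passed an adjusted p under 0.05 in red. Ctss, Ifng and Pdcd1lg2 head their lists, and H2-Ob, Creb1 and Cd40lg stand at the lower ends.

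Markers of the cells that can carry class II did not all move with it. Of 9 dendritic cell markers 3 passed as higher and 3 as lower with LPS, beside 13.5% and 20.8% of all genes, with a median of 0.14. The counts were also 3 and 3 without WT LPS pool 2. Itgax rose by 0.90 (SE 0.21) and Fscn1, a marker of mature dendritic cells, by 0.87 (SE 0.21), while Cd209a fell by 2.81 (SE 0.22) and Clec9a, of type 1 dendritic cells, by 0.79 (SE 0.12). The summed level of the list, the log2 of the sum of its linear values, ran from 11.89 to 12.04 in WT dox, 11.81 to 11.92 in CCSP-p52 dox, 11.77 to 12.32 in WT LPS and 11.59 to 12.23 in CCSP-p52 LPS, and overlapped between LPS states.

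Of 6 B cell markers 2 passed as lower, beside 20.8% of all genes, and none as higher, with a median of -0.59. With WT LPS pool 2 left out, 1 passed as lower. Ms4a1, which encodes CD20, fell by 0.99 (SE 0.30), Pax5, the B cell identity factor, fell by 0.72 (SE 0.13), and Cd79b (-0.54) and Fcer2a (0.72, SE 0.35) did not pass. The summed level ran from 11.26 to 11.99 in WT dox, 10.88 to 11.42 in CCSP-p52 dox, 10.92 to 11.55 in WT LPS and 10.42 to 11.24 in CCSP-p52 LPS. With the pool number as a block 5 of the 6 passed as lower, against 22.5% of all genes, and Fcer2a as higher. In CCSP-p52 against WT lungs without LPS, 1 of the 6, Pax5, was lower at the cut-off (-0.47), and 5 of 6 with the block, against 0.919% of all genes. Their median was -0.45 in that comparison, and none of the 6 passed adjustment.

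Recruited monocyte and macrophage markers passed as higher in 5 of 5, beside 13.5% of all genes, with a median of 2.76. These markers were led by Cd14 (3.995, SE 0.24), Itgam (2.97, SE 0.22), Fcgr1 (2.76, SE 0.29) and Arg1 (2.07, SE 0.32). Their summed level ran from 9.97 to 10.24 in WT dox, 9.86 to 10.16 in CCSP-p52 dox, 13.09 to 13.41 in WT LPS and 12.29 to 13.45 in CCSP-p52 LPS. Neutrophil markers passed as higher in 5 of 5, beside the same 13.5% of all genes. These markers ran from 2.81 for Csf3r to 4.65 for S100a8, with S100a9 at 3.52, Retnlg at 4.005 and Cxcr2 at 3.75. Their summed level ran from 9.74 to 10.36 in WT dox, 9.85 to 9.97 in CCSP-p52 dox, 13.43 to 13.94 in WT LPS and 13.39 to 13.80 in CCSP-p52 LPS. In both lists 5 of 5 rose without WT LPS pool 2. The part of these cells in the LPS effects on class II and costimulation genes was not tested.

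Of 6 alveolar macrophage markers 2 passed as higher and 1 as lower, beside 13.5% and 20.8% of all genes, with Chil3 at 3.22 (SE 0.45), Marco at 0.94 (SE 0.16), Car4 at -0.83 (SE 0.19) and Pparg, which did not pass, at -0.21. Their summed level ran from 12.80 to 12.88 in WT dox, 12.70 to 12.85 in CCSP-p52 dox, 12.56 to 12.57 in WT LPS and 12.34 to 12.81 in CCSP-p52 LPS. No T cell marker of 6 passed, beside 13.5% of all genes higher and 20.8% lower. The 6 markers ran from -0.21 for Cd28 to 0.39 for Cd8a, with Cd4 at -0.19 and Cd3g at 0.18. Their summed level ran from 10.44 to 11.15 in WT dox, 10.64 to 10.90 in CCSP-p52 dox, 10.77 to 11.31 in WT LPS and 10.30 to 11.17 in CCSP-p52 LPS.

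Of 7 alveolar type II markers 2 passed as lower, beside 20.8% of all genes, and 0 without WT LPS pool 2. They were Abca3 (-0.51, SE 0.15) and Sftpb (-0.42, SE 0.13), while Sftpc (-0.42, SE 0.18) and Lamp3 (0.30) did not pass. Of 4 markers of club cells, where the CCSP promoter is active, 3 passed as lower, beside 20.8% of all genes, and 3 without WT LPS pool 2. Scgb3a2 fell by 1.91 (SE 0.43), Cyp2f2 by 1.05 (SE 0.31) and Cckar by 0.96 (SE 0.18), and Scgb1a1, which encodes CCSP, stood at -0.25 (SE 0.10, adjusted p = 0.0964, and 0.0488 with the block). The club cell list had a summed level from 14.89 to 15.03 in WT dox and 14.01 to 14.52 in WT LPS, and from 14.88 to 14.88 in CCSP-p52 dox and 13.85 to 14.70 in CCSP-p52 LPS. None of 6 squamous and muscle markers passed, beside 13.5% of all genes higher and 20.8% lower. Krt4 stood at 1.81 (SE 1.32), Krt5 at 1.23, Krt13 at 1.30 and Acta1 at 0.90, values carried by WT LPS pool 2. Without it the median of the list was -0.05 in place of 1.06, and 1 passed as lower.

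The genes whose values followed the class II chains and Cd74 most closely over the 8 arrays were read by the Pearson correlation with the mean of the 4 centred genes, as a description, among 18811 genes. They were Irf9, a subunit of the interferon-stimulated factor ISGF3 (r = 0.996), H2-Q6 (0.988) and H2-T23 (0.986), which are nonclassical class I genes, Gng12, a G protein subunit (0.986), Pmepa1 (0.986) and Gbp7, a guanylate-binding protein (0.985). All 8 arrays share the normalization, and both the LPS effect and the pool order enter each correlation. In the additive model the LPS effects of these 6 genes ran from 0.43 for Pmepa1 to 1.37 for Gbp7, beside 0.36 to 0.73 for the 4 genes they followed.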

How the data were processed

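Whole lung RNA, pooled from 3 mice per array, was read on 8 Affymetrix Mouse Gene 1.0 ST arrays. The authors deposited log2 intensities made by the Robust Multichip Average, which subtracts background, gives all arrays 1 distribution and condenses the probes of a set, so that a difference in overall RNA level is removed. Limma 3.20.8 is also listed in the submitters' processing notes. Gene symbols are those of the platform's table, updated through Entrez IDs: 21218 of 35556 probe sets had 1 symbol and were tested, 1881 had several and 12457 none. The number of arrays limits the precision.

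Tests used limma 3.58.1 in R 4.3.3, with an additive model of p52 and LPS and a 4-group model, both over all 8 arrays. The study's methods name a linear model of both factors and do not say whether it held an interaction. Its supplementary list gives 0.720 for NFKB2 and 0.796 for TNFSF9. These equal the p52 differences without LPS of the 4-group model, not the additive values of 0.47 and 0.66. LPS effects were called at a Benjamini-Hochberg adjusted p under 0.05, and p52 effects and the difference between LPS effects at a log2 difference of 0.41 either way with an unadjusted p of at most 0.05. The study used that size for increases with p52, and it also drew on p-values for its selection without naming a limit. The p limit of 0.05, the other direction and the use on the difference were added here. The genes and lists were chosen with earlier results of these data known. From each list up to 4 genes were named by the smallest p of the LPS effect, beside Nfkb2 and those of the partner and costimulator lists at the cut-off in a p52 comparison. The choice of H2-Oa, H2-Ob, Marchf8, Rfx5, Rfxap, the NF-Y subunits, Creb1, Icos, Pdcd1lg2, Ctsd, Csf3r and Scgb1a1 came after seeing their values. Same-numbered pools deviated together from the group means in each of 6 pairs of groups (r from 0.14 to 0.35). On the values alone, the pool number was therefore also fitted as a block, as an alternative. Unless the block is named, the values printed are from fits without it. By the study's count of mice per group, the pools hold different mice. The labels do not say how the pools were otherwise handled. The p-values measure only the spread between pools, in which mice and handling cannot be told apart. The fits were tested on simulated data. Alternatives covered the probe sets tested, dim probe sets, the probe set of a gene, moderation, weights, normalization, centring, model, threshold, block and arrays left out. The counts of the other lists without WT LPS pool 2 were added after seeing the data. Genes without a probe set of 1 symbol were not analysed here.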

Additional observations from a re-analysis of the deposited data

Results flagged for a closer look

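Cd40lg, the ligand of CD40 on activated T cells, stood out because the difference between the LPS effects of the genotypes reached the cut-off at an unadjusted p, although the adjusted p did not pass. Its log2 values were 5.59 and 5.39 in WT dox, 5.60 and 5.65 in CCSP-p52 dox, 5.29 and 5.28 in WT LPS and 5.10 and 4.89 in CCSP-p52 LPS. Every value lay below the array medians of 7.48 to 7.54, so the probe set was dim. With LPS it fell by 0.63 (SE 0.12, adjusted p = 0.0239) in CCSP-p52 lungs, while in WT lungs it stood at -0.20 (SE 0.12, adjusted p = 0.238). The difference was -0.42 (SE 0.16, unadjusted p = 0.0357) with an adjusted p of 0.913 by limma, so the genotypes were not shown to differ. Without WT LPS pool 2 the unadjusted p was 0.0734 in limma's test. It was 1 of 17 costimulator genes at this cut-off, which 3.61% of all genes reached. Groups of 2 pools are too small for a test of single outlying arrays, so none was made.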

How the results depend on the processing

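The LPS effect kept its direction in every fit for each of the 9 genes, additive and by genotype. Because every LPS array lay above every array without LPS, fits that left out arrays could not reverse it. Of 169 refits of a gene's additive LPS effect, 162 kept the call and 7 lost it, all for H2-Aa or Cd74. Counts of genes called that moved by more than 1.5 times were these. With array weights, 2 genes reached the cut-off in the additive p52 comparison, H2-DMa (0.41, adjusted p = 0.553) and Ciita (0.46, adjusted p = 0.497), against 0 without. With the pool number as a block, 7 genes passed for LPS in CCSP-p52 lungs in place of 2, and the block changed the other calls for H2-Aa and Cd74 in WT lungs and no call in a p52 comparison. At an adjusted p under 0.01, 1 gene passed in WT and 0 in CCSP-p52 lungs. Without both second LPS pools, 6 passed in CCSP-p52 lungs. Leaving out 1 array at a time, the count ran from 0 to 7 for LPS in WT lungs, from 0 to 6 in CCSP-p52 lungs, from 7 to 9 in the additive model, from 0 to 1 for p52 without LPS, with LPS and for the difference, and stayed at 0 for the additive p52 effect. The cause of these shifts was not tested, beyond the fewer arrays of such a fit. The share of all genes called with array weights, at the stricter threshold or without both second LPS pools is not given. Such a count cannot be told apart from a change over all genes. Among the brighter probe sets only 7 of the 9 genes are tested, since Cd80 (mean log2 intensity 7.88) and Cd86 (8.01) lie below 8.14, the median over the probe sets tested, and H2-Eb1 and H2-DMa then passed in CCSP-p52 lungs. H2-Eb1 was lost in WT lungs when all probe sets were tested and passed in CCSP-p52 lungs after a new quantile normalization, and Cd74 passed in WT lungs with arrays centred on the median. Signal over background and the probe-level steps could not be varied from these values. The confidence intervals printed are those of the fits without the block. With it the SE of the p52 difference of Cd274 with LPS was 0.19 in place of 0.42 (unadjusted p = 0.0736, adjusted p = 0.569 from limma).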
